A study of Mus musculus with 108 samples.

Results

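The regions described here had a quiescent state in the livers of young adult mice. At 12 months of age they carried a state labelled active enhancer, under a standard diet and under caloric restriction alike. They were chosen on the chromatin states themselves, as every autosomal bin of 200 bp that was in state 8 (quiescent chromatin) in SD 3m and in state 3 or 4 (active enhancers) in both SD 12m and CR 12m. This rule picked 126550 bins, or 25.3 Mb, which is 1.56% of the 8122212 autosomal state 8 bins of SD 3m, among 12313718 autosomal bins and 13168874 bins in all. Adjacent bins were merged into 12293 stretches, and each stretch was assigned to the gene with the nearest transcription start site (TSS). The states come from ChIP-seq of 4 histone marks in livers of C57BL/6 female mice, 108 libraries from 31 mice in 4 groups. SD 3m (30 libraries from 8 mice, 3 months old) and SD 12m (29 libraries from 8 mice, 12 months old) were fed a standard diet. CR 12m (29 libraries from 9 mice, 12 months old) was kept on 30% caloric restriction, which the study began at the age of SD 3m. All groups share the sex, the strain, formalin fixation and paraffin embedding of the tissue. SD 6m (20 libraries from 6 mice) was not analysed here.

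Enhancers are stretches of DNA away from gene starts that bind transcription factors and raise the activity of genes on the same chromosome. Acetylation of H3K27 (H3K27ac) marks enhancers in use, mono-methylation of H3K4 (H3K4me1) marks enhancers in use or poised for it, H3K4me3 marks active gene starts, and H3K27me3 marks genes silenced by Polycomb. In liver, enhancers set the activity of the genes for plasma proteins, for detoxification and for lipid and glucose metabolism, many of which follow feeding and hormones. The authors trained a model with 8 states on the 4 marks: 1 Active TSS, 2 Flanking TSS, 3 Active enhancer (1), in which H3K27ac and H3K4me1 are both frequent, 4 Active enhancer (2), in which H3K27ac is found with little H3K4me1, 5 Poised enhancer, mostly H3K4me1, 6 Repressed Polycomb, 7 Repeats/cLAD, and 8 Quiescent chromatin, with none of the 4 marks.

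The libraries of a group were merged before states were assigned, so each group has 1 segmentation and no replicate. No difference between groups could be set against the spread between mice, and no test was made. Values are counts of bins or shares of them, and where a range is given it runs over the 19 autosomes and describes the genome, not the mice. The 2 comparisons with SD 3m share its segmentation, so that an error in it would count in both. The number of reads behind a state is unknown, and a region in which marks were missed in SD 3m cannot be told apart from a region that gained them. Liver is a mixture of cell types, and a larger share of cells carrying a mark cannot be told apart from more of the mark in the same cells. The paper reports that histology of these livers showed no structural differences in infiltrating cells. It also names cell loss and infiltration in aged tissue as a limitation. As a check of the tissue, the TSS of 25 of 25 autosomal plasma protein genes was in states 1 to 4 in each of the 3 segmentations. Of 20 neuronal genes, 0, 1 and 2 were so, in the order SD 3m, SD 12m, CR 12m, which is the order of all values given in threes for the segmentations hereafter.

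The 200 bp at the centre of each of the 5 longest stretches are printed as examples and do not stand for the regions as a whole. They are from GRCm38.p6 (mm10), forward strand, with CG dinucleotides in capitals, as the regions held more of them than other state 4 bins did.
Stretch nearest to Pgbd5, in an exon of Galnt2, chr8:124332601-124332800: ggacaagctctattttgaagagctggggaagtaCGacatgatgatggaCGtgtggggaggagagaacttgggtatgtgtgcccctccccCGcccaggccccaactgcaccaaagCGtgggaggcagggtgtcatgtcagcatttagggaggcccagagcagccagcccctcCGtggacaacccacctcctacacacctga
Stretch nearest to Cadm1, outside genes, chr9:47457601-47457800: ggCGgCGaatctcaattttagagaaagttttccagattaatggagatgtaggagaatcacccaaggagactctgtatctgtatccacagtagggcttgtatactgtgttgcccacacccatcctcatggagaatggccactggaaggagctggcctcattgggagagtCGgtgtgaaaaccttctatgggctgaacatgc
Stretch nearest to Xrcc1, in an intron of Xrcc1, chr7:24562801-24563000: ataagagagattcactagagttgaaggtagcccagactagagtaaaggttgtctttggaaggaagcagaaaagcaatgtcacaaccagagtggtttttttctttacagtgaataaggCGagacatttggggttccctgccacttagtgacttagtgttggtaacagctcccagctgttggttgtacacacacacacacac
Stretch nearest to Dlx4, outside genes, chr11:95191401-95191600: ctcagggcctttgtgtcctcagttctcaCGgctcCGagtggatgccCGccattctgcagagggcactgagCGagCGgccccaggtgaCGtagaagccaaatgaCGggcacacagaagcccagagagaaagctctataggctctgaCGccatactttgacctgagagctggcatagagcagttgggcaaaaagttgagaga
Stretch nearest to Plppr1, in an intron of Plppr1, chr4:49089001-49089200: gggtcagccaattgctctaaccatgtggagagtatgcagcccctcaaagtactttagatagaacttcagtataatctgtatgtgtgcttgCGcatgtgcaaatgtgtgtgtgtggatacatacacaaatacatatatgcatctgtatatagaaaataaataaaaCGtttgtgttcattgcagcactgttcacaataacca
These bins hold 5, 3, 1, 8 and 2 CG dinucleotides, in the order printed, with a GC content of 59.5%, 48.5%, 44%, 56.5% and 38.0%. All were quiescent in SD 3m and took state 4 at 12 months under both diets, except that the bin near Cadm1 took state 3 under restriction. Repeats took up 63 bases of the bin in Xrcc1 and 98 bases of the bin in Plppr1, and none of the other 3.

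**Figure D1:**
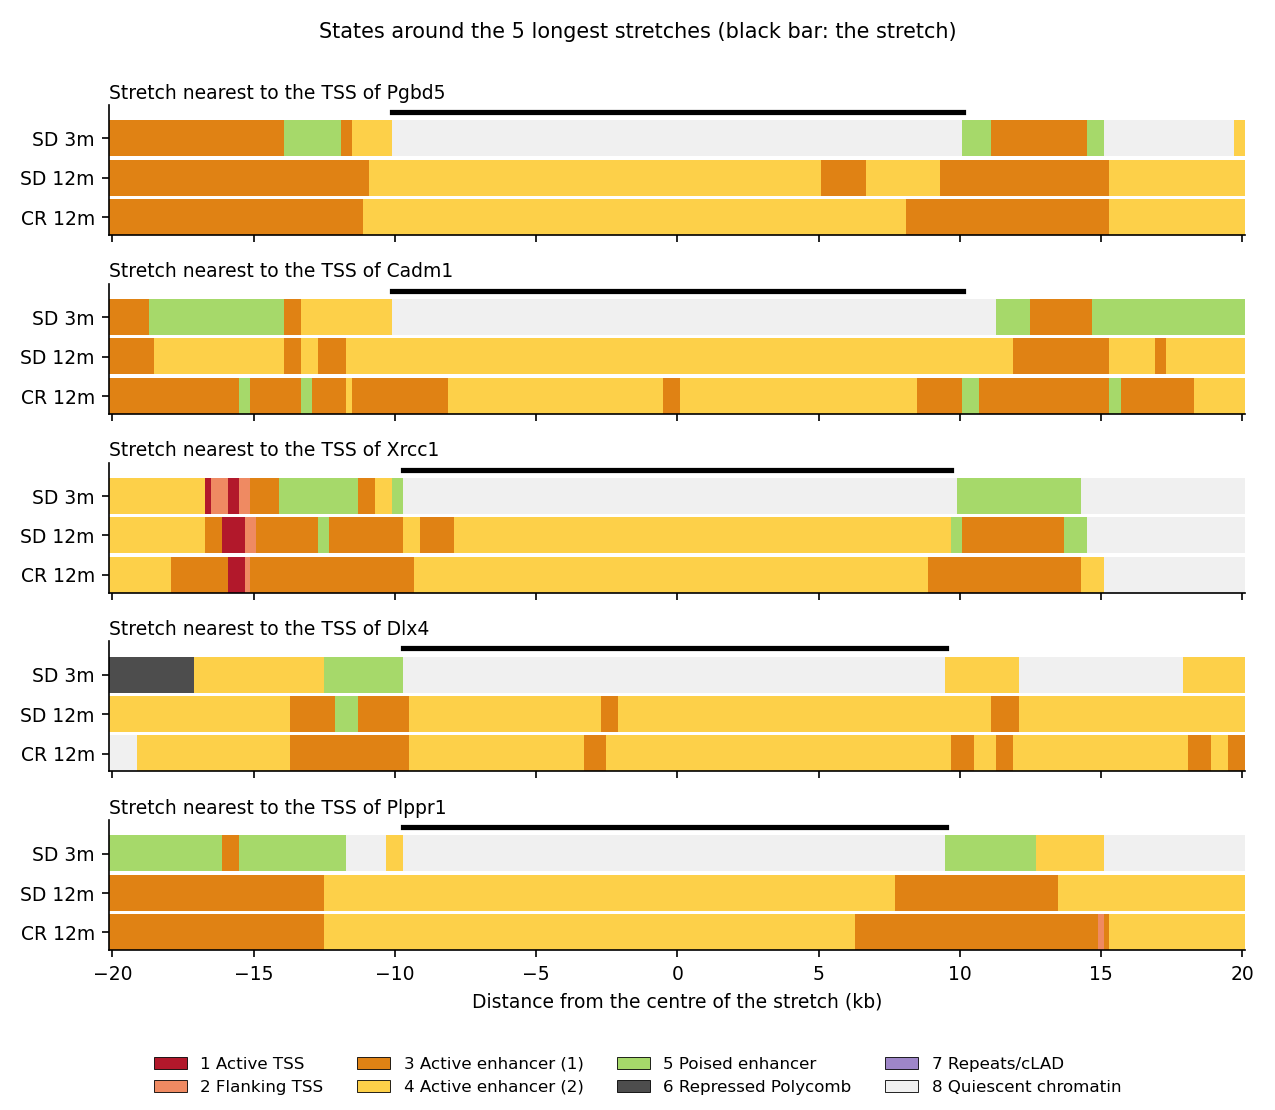
Chromatin states of the 200 bp bins within 20 kb of the centre of each of the 5 longest stretches, with 1 row per segmentation (SD 3m, SD 12m, CR 12m), colours for the 8 states and a black bar over the stretch. Each stretch is a state 8 gap in SD 3m with enhancer states 3, 4 or 5 within 2 kb on both sides, and in both 12-month groups it is in state 4 with some state 3, which is absent from the Cadm1 stretch in SD 12m.

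The longest stretches began or ended at enhancers that were already present in SD 3m. Marked bins bordered 3 of the 5 on both sides, while state 8 went on past 1 end of the stretches near Cadm1 and in Xrcc1. The stretch nearest to Pgbd5 (chr8:124322601-124342800, 101 bins) lay wholly inside Galnt2, whose enzyme adds the first sugar of O-linked glycans, and included 1186 exonic bases. In SD 3m, state 4 preceded it and state 5 followed it. It was part of an active domain (an unbroken run of state 3 or 4 in both 12-month groups) of 122.8 kb, of whose 614 bins 407 were active in SD 3m. The stretch nearest to Cadm1 (chr9:47447601-47467800, 101 bins), a gene for a cell adhesion molecule, lay outside genes, 62.4 kb from the TSS. State 3 took up none of its bins in SD 12m but 21 under restriction. The stretch inside Xrcc1 (chr7:24553201-24572600, 97 bins), which encodes a scaffold of DNA single-strand break repair, began 6.50 kb from the TSS and included 1559 exonic bases. The stretch nearest to Dlx4 (chr11:95181801-95201000, 96 bins), a homeobox gene, lay outside genes. The stretch inside Plppr1 (chr4:49079401-49098600, 96 bins), a phospholipid phosphatase-related gene, was intronic throughout. Within 10 kb on both sides of these 5 stretches, 18 to 59 of 100 bins were in state 3 or 4 at 3 months, 60 to 100 at 12 months on the standard diet and 73 to 100 under restriction.

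Nearly all bins took the same state under both diets, the state with H3K27ac and little H3K4me1. Of the 126550 bins, 119418 (94.4%) were in state 4 in both SD 12m and CR 12m, 6093 (4.81%) were in state 4 under the standard diet and state 3 under restriction, 271 (0.214%) the reverse, and 768 (0.607%) in state 3 in both. State 3 thus held 0.821% of the bins of SD 12m and 5.42% of those of CR 12m, which had the higher share on 19 of 19 autosomes. The share ran from 0.292% (chromosome 16) to 3.06% (chromosome 19) for SD 12m and from 3.35% (chromosome 17) to 7.14% (chromosome 7) for CR 12m, and the 2 ranges did not overlap. State 3 was also more frequent in CR 12m outside these regions, with 69.2% of the bins that were active in all 3 groups against 62.9% in SD 12m. The merged libraries differed in number by mark, with 8, 6 and 9 for H3K4me1 and 8, 7 and 9 for H3K27ac. The part of these numbers in the shares of state 3 was not tested and cannot be told apart from that of diet. At least 1 state 3 bin was found in 413 stretches (3.36%) for SD 12m and 1608 (13.1%) for CR 12m, in 323 of them in both, and 10595 stretches (86.2%) had none in either. Of the state 3 bins, 44.4% were the outermost bin at an end for SD 12m and 27.3% for CR 12m, against 18% and 17.7% of state 4 bins. The regions thus carried a state labelled active enhancer, but rarely the one that has H3K4me1. The paper also calls state 4 a weak enhancer signature. Of quiescent regions that changed to state 4 or other states by 12 months, it describes a slight presence of marks.

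As a background, 2.43% of the state 8 bins of SD 3m were active in SD 12m (197069 bins) and 2.91% were active in CR 12m (236268 bins). The shared bins made up 64.2% of the first list and 53.6% of the second. The remaining 70519 bins of SD 12m and 109718 bins of CR 12m, called SD-only and CR-only hereafter, are the closest comparison. Just outside the rule, 85.8% of the SD-only bins were in state 8 in CR 12m and 11.7% in state 5, and 93.0% of the CR-only bins were in state 8 in SD 12m and 6.45% in state 5. The reverse change, from state 3 or 4 in SD 3m to state 8 in both 12-month groups, was found for 84661 bins. It started from fewer bins, as SD 3m had 1219378 autosomal bins in state 3 and 826207 in state 4, against 8122212 in state 8. Active enhancer states covered 16.6%, 20.4% and 21.0% of the autosomes.

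The stretches were short. Their median length was 1600 bp (quartiles 600 and 2800 bp), the longest was 20200 bp, and 1474 (12.0%) were a single bin. The 8240 stretches of at least 1 kb (67%) held 93.0% of the bins. CR-only stretches had the same median and SD-only stretches a median of 1200 bp.

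Most stretches extended or joined enhancers of SD 3m. An adjacent bin was in state 3, 4 or 5 in SD 3m for 10943 stretches (89.0%, 86.7% to 91.7% over autosomes), against 58.9% of SD-only and 58.9% of CR-only stretches. The rule shapes this difference, since an SD-only or CR-only stretch can lie against a shared stretch, which was in state 8 in SD 3m, and a shared stretch cannot. This was so for 30.6% of SD-only and 41.6% of CR-only stretches, and among the others 73.4% and 79.4% had an enhancer state beside them. The neighbour was state 4 for 8289 stretches (67.4%), state 5 for 3957 (32.2%) and state 3 for 8. Enhancer states lay on both sides of 3987 stretches (32.4%), against 13.2% of SD-only and 14.2% of CR-only stretches that lay against no shared stretch, and these had a median length of 2600 bp and held 49.1% of the bins. State 8 lay on both sides of 1077 stretches (8.76%), against 22.3% and 17.4% in the same comparison, and these held 6.27% of the bins. Without the bins within 1 kb of a marked bin of SD 3m, 61106 bins remained chosen, 0.752% of all state 8 bins in place of 1.56%. In 4384 cases (35.7%) the stretch replaced a whole state 8 gap of SD 3m from end to end. Of the 1077 stretches without a marked neighbour, 817 (75.9%) had an enhancer state within 5 kb and 992 (92.1%) within 10 kb, with a median gap of 2600 bp. The 3 longest of these were one of 11.8 kb in Pbx4, nearest to Cilp2, one of 11.2 kb outside genes, nearest to Bckdhb, and one of 10.8 kb that overlapped Nipbl, nearest to Cplane1.

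**Figure D2:**
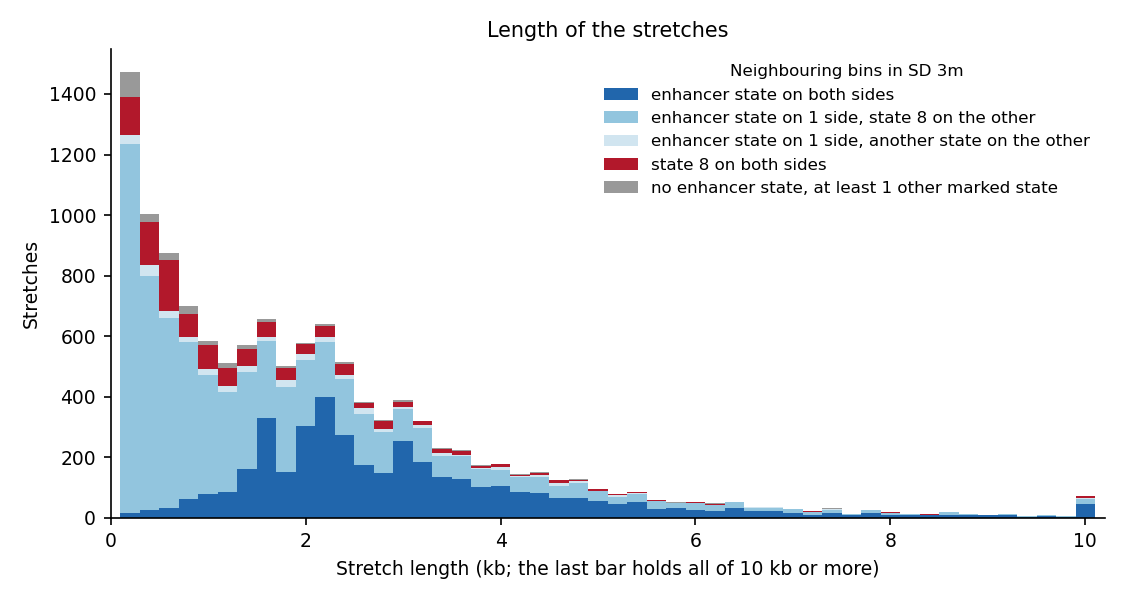
Number of stretches (vertical axis) by length in kb (horizontal axis), coloured by the states of the bins on either side in SD 3m. Stretches between enhancer states on both sides have a median of 2600 bp, and those with state 8 on both sides are few (1077) and shorter, with a median of 1000 bp.

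At 12 months most of the stretches were part of an active domain that extended past them. Of 52558 active domains that SD 12m and CR 12m share, 9987 (19%) held at least 1 of the stretches, and their median length was 7400 bp against 4200 bp over all such domains, but a long domain has more bins that could be chosen. Only 1192 of the 9987 (11.9%) were wholly in state 8 in SD 3m, with a median length of 1000 bp. Directly beside the stretches, 42.4%, 71.2% and 74.5% of bins were in state 4. State 3 held 0.0325%, 3.45% and 9.69% of these bins, and state 5, the poised enhancers, 18.3%, 1.20% and 1.448%. At 10 kb from a stretch, state 3 had reached 17.8%, 21.6% and 28.7%, and state 4 was at 23.7%, 40.1% and 37.6%. The rule fixes neither neighbour state, but a bin in state 3 or 4 beside a stretch in both 12-month groups cannot have been in state 8 in SD 3m, as it would then be part of the stretch.

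**Figure D3:**
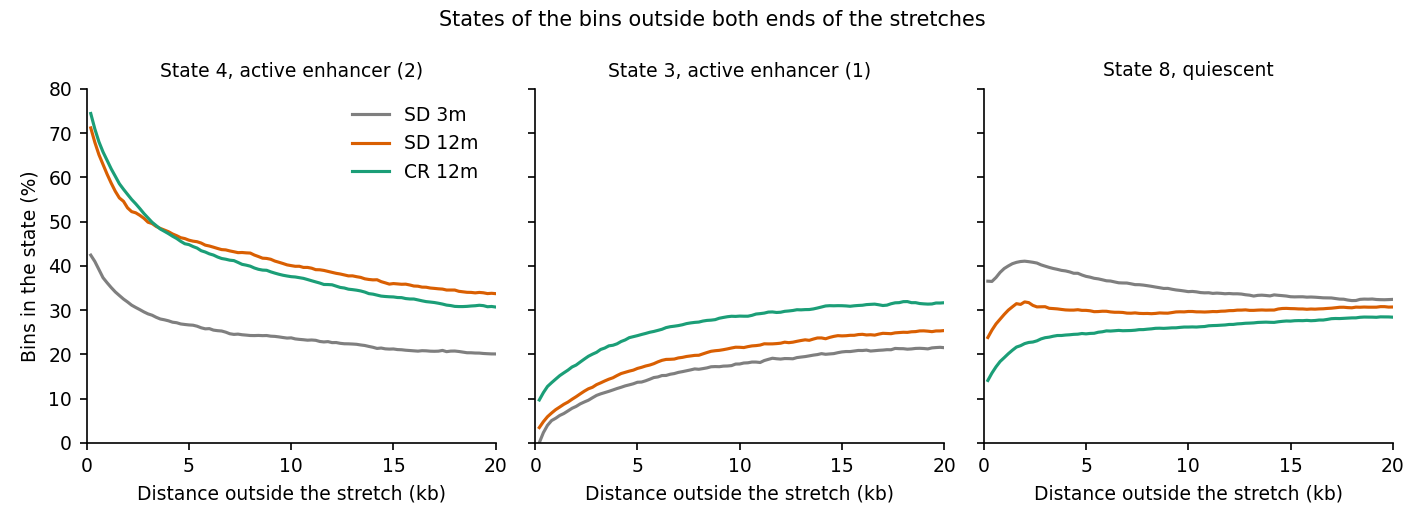
Percent of bins in state 4, state 3 and state 8 (vertical axes) by distance in kb outside both ends of the 12293 stretches (horizontal axes), with 1 line per segmentation. State 4 falls and state 3 rises with distance in all 3 segmentations, SD 3m is lowest for state 4 throughout, and CR 12m is highest for state 3 (9.69% beside the stretch).

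The regions were richer in G and C than any other class of bins examined. Their GC content was 47.8% (45.6% to 50.01% over autosomes), against 46.5% in CR-only bins, 44.6% in SD-only bins, 43.4% in bins in state 4 in all 3 groups, 41.1% in bins in state 8 in all 3 groups and 39.5% in bins that changed in the reverse direction. The value was above that of each of these classes on 19 of 19 autosomes. CG dinucleotides numbered 12.5 per kb, against 11.5, 10.02, 9.76, 7.51 and 7.397 in the same order, and this also held on 19 of 19 autosomes. Bins with 10 or more CG dinucleotides, as in CpG islands, were few, 1.31% against 0.661% of bins in state 4 in all 3 groups, while 15.2% against 9.05% had 5 or more. Repeats, as soft-masked in the reference, made up 25.7% of bases, against 30.9% in bins in state 4 in all 3 groups and 39.4% in bins in state 8 in all 3 groups, and the share was lower than in these 2 classes on 19 of 19 autosomes. It was close to the share in CR-only bins (26.3%), SD-only bins (26.9%), bins active in all 3 groups (26.4%) and bins that changed in the reverse direction (27.2%). Against CR-only bins the share of repeats was lower on 11 and higher on 8 autosomes. Against bins active in all 3 groups it was lower on 12 and higher on 7. GC content can change how deeply a sequence is read, and the depth of the merged libraries is unknown. Its part in the choice of these bins was not tested.

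**Figure D4:**
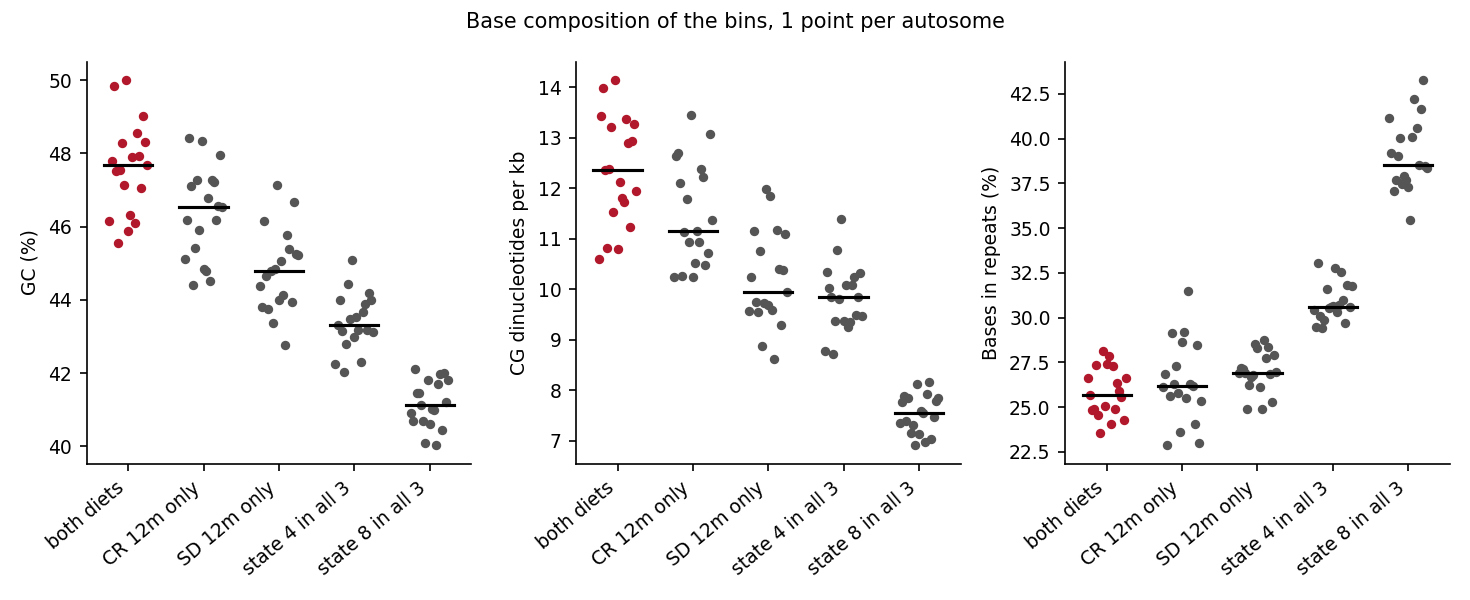
GC content in percent, CG dinucleotides per kb and percent of bases in repeats (vertical axes) for 5 classes of bins, with 1 point per autosome and a line at the median of the 19 autosomes. The bins that became active under both diets (red) have the highest medians for GC and CG, with a GC content of 45.6% to 50.01%.

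The GC difference was found inside and outside genes. Wholly outside genes, the bins had a GC content of 46.2%, against 43.6% in bins in state 4 in all 3 groups and 40.7% in bins in state 8 in all 3 groups. Wholly in introns the values were 47.3%, 42.6% and 41.6%, and in bins with exonic bases 52.9%, 45.7% and 46.2%. In each of these 3 settings the regions were higher than both classes on 19 of 19 autosomes. Against CR-only bins they were higher on 18 autosomes in exons and introns and on 19 outside genes, with a median difference of 1.08 to 1.32 percentage points.

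Genes took up more of these regions than of quiescent chromatin, and exons in particular. Gene bodies of the longest curated RefSeq transcripts covered 61.0% of their bases (45.9% to 69.6%), against 35.8% in bins in state 8 in all 3 groups, which was lower on 19 of 19 autosomes, 60.9% in bins in state 4 in all 3 groups and 48.3% in SD-only bins. The share was higher, at 63.8%, in CR-only bins, above the regions on 14 of 19 autosomes, and at 64.7% in bins active in all 3 groups. Exons covered 9.81%, against 1.90% in bins in state 8 in all 3 groups, 6.81% in bins in state 4 in all 3 groups, 8.41% in CR-only and 4.25% in SD-only bins. Introns covered 51.2%, and 39.0% lay between genes.

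Short sequence motifs of liver transcription factors were searched on both strands, as exact letters wholly within a bin, with N for any base and with no allowance for base composition. The shares that follow are of the regions' bins, of all state 8 bins of SD 3m and of bins in state 4 in all 3 groups. Letters of the CTCF motif, CAGGGGGC, were found in 0.871%, 0.331% and 0.504% of bins, the E-box CACGTG in 3.08%, 1.73% and 2.46%, the nuclear receptor element AGGTCA in 13.4%, 10.6% and 11.5%, and the ETS letters CCGGAAGT in 0.199%, 0.0917% and 0.137%. The HNF1 letters TTAATNATT were in 0.764%, 1.82% and 1.40%, the FOXA letters TGTTTAC in 2.27%, 3.00% and 2.81%, and the C/EBP letters TTGCNNAA in 6.67%, 9.799% and 7.72%. The HNF4 letters CAAAGTCCA, of a receptor central to hepatocyte identity, were in 0.266%, 0.243% and 0.238%. They were in 0.254% of SD-only bins, but in more of the CR-only bins (0.287%) and of the bins active in all 3 groups (0.300%). The CTCF, E-box, AGGTCA and ETS letters were in 0.769%, 2.92%, 12.9% and 0.156% of CR-only bins. In bins active in all 3 groups they were in 0.542%, 2.62%, 12.7% and 0.155%, so that the regions were highest for these. Among the printed sequences, the centre bin near Dlx4 holds the nuclear receptor element and the C/EBP letters. The letters of PU.1, GAGGAAGT, were in 1.24%, against 1.11% of bins in state 4 in all 3 groups, 1.28% of SD-only and 1.23% of CR-only bins. Those of NF-kB, GGGANTTCC, were in 0.663%, 0.454% and 0.543%. Shares below those of all state 8 bins were found for the AP-1 letters TGANTCA (5.52% against 5.94%), the glucocorticoid receptor letters ACANNNTGT (6.04% against 6.60%), the STAT letters TTCNNNGAA (5.35% against 7.89%), the IRF letters GAAANNGAA (5.62% against 8.24%) and the TEAD letters CATTCCA (3.05% against 3.28%). How much of these differences follows from the GC content was not tested.

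The share of state 8 bins that became active differed between chromosomes, from 0.786% on chromosome 14 to 2.92% on chromosome 11, with a median of 1.57%. Chromosome 19 (2.80%) was next to the highest and chromosome 3 (0.989%) next to the lowest. State 4 coverage in SD 3m was also lowest on chromosome 14 (5.13%) and highest on chromosome 11 (9.09%), while chromosome 3 (6.46%) was near the median of 6.61%. The SD-only share was lowest on chromosome 14 and highest on chromosome 10, and the CR-only share lowest on chromosome 3 and highest on chromosome 19. A link with the coverage was not tested.

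Most of the regions lay away from gene starts, though nearer to them than quiescent chromatin as a whole. Of the stretches, 264 held at least 1 TSS, 276 TSS in all, which is 1.11% of the autosomal TSS and 3.89% of the 7088 TSS that were in state 8 in SD 3m, against 1.56% of all state 8 bins. Within 2 kb of a TSS lay 935 stretches (7.61%) and 4.64% of the bins, against 1.75% of the state 8 bins of SD 3m and 3.85% of all autosomal bins. The median distance to the nearest TSS was 16.8 kb (quartiles 6.61 and 39.7 kb), against 26.4 kb for SD-only and 21.9 kb for CR-only stretches, and 7.80% of stretches were over 100 kb away, against 15.1% and 11.8%. Of the TSS held, 184 were of protein-coding genes (0.919% of such TSS), 51 of miRNAs (4.49%) and 35 of lncRNAs (1.09%). The 5 longest of these stretches held the TSS of Mir6934 (15.6 kb, inside Tbc1d16), of Cort (13.4 kb), of Crocc2 (11.8 kb), of the lncRNA Gm11651 (11.2 kb, opposite in strand to Ace) and of Mir7077 (10.8 kb, inside Cmip). The start of a miRNA hairpin in the annotation lies in its host gene and is not the start of its transcript. Each of the 5 TSS bins was in state 8 in SD 3m and in state 4, not state 1, in both 12-month groups.

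The promoters of the 2 protein-coding genes among them are given as the 250 bases before the TSS, from RefSeq (GRCm38.p6), in the direction of the gene and with CG dinucleotides in capitals. Cort encodes the neuropeptide cortistatin, and Crocc2 a relative of the ciliary rootlet protein.
Cort, minus strand, chr4:149126764-149127013: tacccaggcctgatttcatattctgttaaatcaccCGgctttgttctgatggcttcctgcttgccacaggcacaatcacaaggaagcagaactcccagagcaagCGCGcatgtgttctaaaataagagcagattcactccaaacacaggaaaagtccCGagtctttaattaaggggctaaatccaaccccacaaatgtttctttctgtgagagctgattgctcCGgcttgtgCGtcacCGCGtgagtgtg
Crocc2, plus strand, chr1:93168173-93168422: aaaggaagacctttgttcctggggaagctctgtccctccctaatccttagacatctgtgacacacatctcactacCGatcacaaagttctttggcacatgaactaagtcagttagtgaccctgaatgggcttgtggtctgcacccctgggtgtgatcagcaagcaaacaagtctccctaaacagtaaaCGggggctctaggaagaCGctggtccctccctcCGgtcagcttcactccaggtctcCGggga
They hold 8 and 5 CG dinucleotides, while the median over the 32851 promoters of the same table is 6. A promoter was found in the table for 3 of the 5 TSS.

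The stretches were spread over many genes. They were nearest to the TSS of 6472 of 24963 autosomal genes (25.9%), of which 3574 had 1 stretch and 29 had 10 or more. Protein-coding genes were 82.9% of these and 80.2% of all genes. The TSS of 69.7% of the assigned genes was in states 1 to 4 in SD 3m, against 47.7% of the other genes. At 12 months these shares were 81.4% and 50.2% on the standard diet and 82.9% and 50.2% under restriction. By the rule, a TSS held by a stretch was quiescent in SD 3m and in an active enhancer state in both 12-month groups. Such stretches numbered 264, and each was assigned to a gene whose TSS it held. Part of the rise for assigned genes thus follows from the choice. Assignment to the nearest TSS depends on the room around it. The median territory, the span nearer to a TSS than to any other, was 54.9 kb for assigned and 38.0 kb for other genes, and 15.2%, 26.4%, 31.1% and 31.0% of genes were assigned from the smallest to the largest of 4 groups of equal size.

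Nectin1, which encodes a cell adhesion receptor, had the most, with 462 bins (92.4 kb) in 18 stretches over 299.2 kb. Its gene body with 5 kb on both sides, its window, held 182, 302 and 352 active bins (state 3 or 4) of 369. The genes were chosen by their new bins, and new bins inside a window raise its active bins at 12 months by the rule. This holds for all windows given below. Sall1, a zinc finger repressor of transcription, had 363 bins in 28 stretches, all outside the gene and up to 404.2 kb from its TSS, with a further 571 CR-only bins and 0 SD-only bins. Cadm1 had 320 bins in 15 stretches, and its window held 477, 822 and 978 active bins of 1667. Slc4a4, a sodium bicarbonate cotransporter, had 273 bins in 13 stretches, of which 10 overlapped the gene, and its TSS went from state 1 to state 4 in both 12-month groups. Dynlrb2 had 229 bins, all 94.6 kb or more from its TSS, Gabbr2, a GABA receptor subunit, had 196, and Plppr1 had 192. The TSS of Gabbr2 and Plppr1 was in state 8 in SD 3m and SD 12m and turned to state 4 under restriction. Sox5, a transcription factor gene, had 193 bins, Gc, which encodes the vitamin D binding protein of plasma, had 189, none inside its gene, and Angpt1, a ligand of the receptor Tie2, had 187. Among genes that do not code for proteins, Gm16551 had 240, Gm30712 215, Gm34647 201 and Gm17182 194 bins. All of these but Gm17182 had territories of at least 203.6 kb, against a median of 42.4 kb over all genes.

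**Figure D5:**
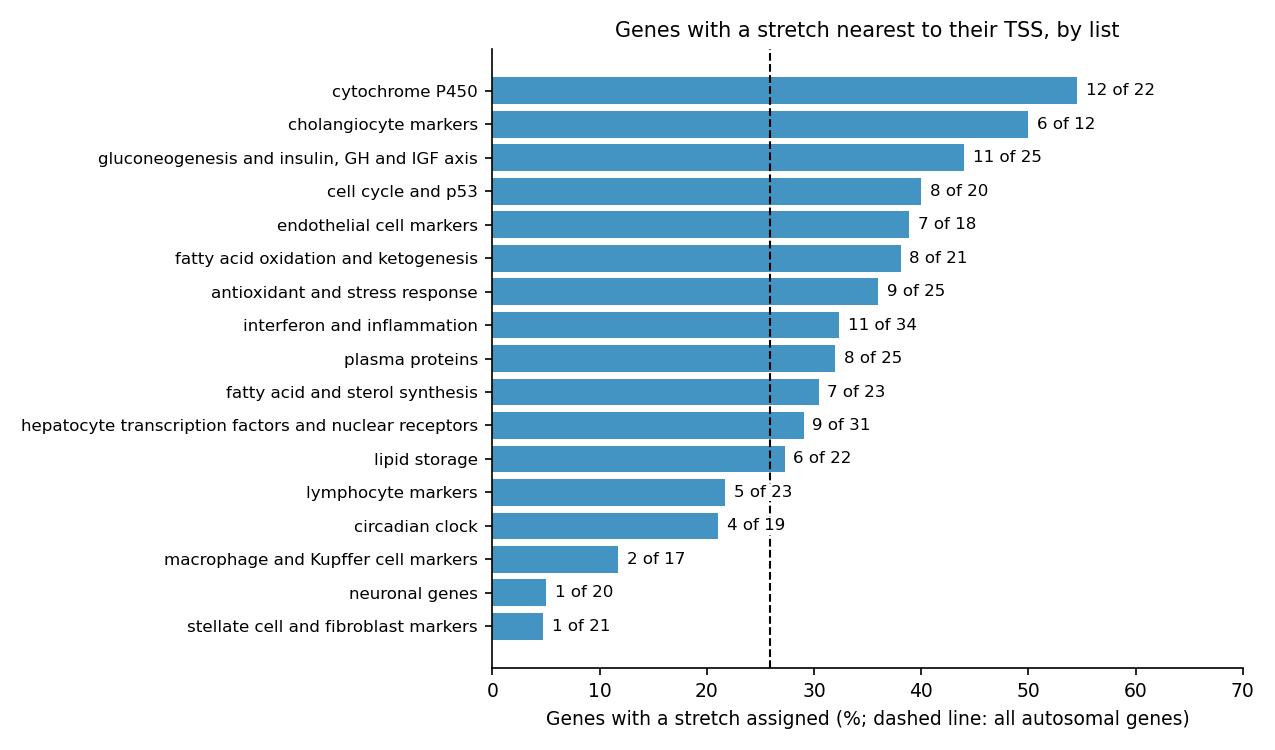
Percent of the autosomal genes of each list that had a stretch nearest to their TSS (horizontal axis), with the counts beside the bars and a dashed line at 25.9%, the share over all autosomal genes. The cytochrome P450 list is highest with 12 of 22 genes, and the stellate cell and neuronal lists are lowest with 1 gene each.

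The genes of liver metabolism are described by list, with the number of genes that had a stretch to be read against 25.9% of all genes. Genes with an active TSS had a stretch more often. Of the 13330 genes with the TSS in states 1 to 4 in SD 3m, 4508 had one, and over all genes 6472 of 24963. Most genes of the metabolic lists had such a TSS, from 17 of 22 cytochrome P450 genes to 25 of 25 plasma protein genes. New bins inside a gene's window add to its active bins at 12 months by the rule. The median number of bins per gene was 0 over all genes and in every list except the cytochrome P450 and cholangiocyte lists, where it was 1. Of the cytochrome P450 genes, which oxidise drugs and steroids, 12 of 22 (54.5%) had a stretch. A CR-only stretch was nearest to 15 of the 22 and an SD-only stretch to 3, against 5558 and 4347 of all 24963 genes. Cyp2b13 had 49 bins, Cyp2a5 48, Cyp2b9 44 and Cyp2b10 20. These 4 genes had more CR-only bins, 72, 110, 54 and 38 in the same order, and 0 SD-only bins each. The Cyp2a5 window had 18, 15 and 83 active bins of 91, and its TSS was in states 8, 5 and 3. The 4 are neighbours in a cluster of related genes on chromosome 7. Where copies are alike, the authors' removal of poorly mapped reads can lower the signal. The median territory of the list was 66.1 kb. Of the genes for plasma proteins, 8 of 25 (32%) had a stretch, led by Serpina1a with 63 bins (a protease inhibitor of a family with close copies), Apob with 40, Ambp with 28 and Hpx, the haem-binding hemopexin, with 23. The Serpina1a window had 25, 44 and 91 active bins of 103. The Apob window had 57, 36 and 142 of 247, so that it was lower in SD 12m than in SD 3m although 3 stretches became active beside it.

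Of the genes of fatty acid and sterol synthesis, 7 of 23 (30.4%) had a stretch. Insig2 and Insig1, which retain the sterol sensor SCAP in the endoplasmic reticulum, had 99 and 62 bins, Elovl5, a fatty acid elongase, had 43, and Fasn, the fatty acid synthase, had 41. The Fasn window had 60, 117 and 131 active bins of 144, and its state 8 bins went from 50 to 0 and 0. Of the lipid storage genes, 6 of 22 (27.3%) had a stretch, with 52 bins for Cidea, 50 for Mogat1, 34 for Dgat1, an enzyme of the last step of triglyceride synthesis, and 11 for Plin4. The TSS of Cidea, a lipid droplet protein, stayed in state 6 in all 3 segmentations. Its window had 2, 0 and 21 active bins of 172, so that its 52 new bins lay outside the window. Of the genes of fatty acid oxidation and ketogenesis, 8 of 21 (38.1%) had a stretch. Ppargc1a, a coactivator of mitochondrial and gluconeogenic genes, had 125 shared bins, 7 SD-only and 387 CR-only bins. Pdk4, which restrains glucose oxidation, had 74 bins, Vnn1 had 49 and Acadl had 7. The Vnn1 window went from 45 to 98 and 104 active bins of 104.

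Of the genes of gluconeogenesis and of the insulin, growth hormone and IGF axis, 11 of 25 (44%) had a stretch. Irs2, an adaptor of the insulin receptor, had 172 bins in 6 stretches, with 0 SD-only and 0 CR-only bins. Its TSS was in states 7, 4 and 1, and its window had 76, 128 and 126 active bins of 172. Pck1, the rate-limiting enzyme of gluconeogenesis, had 65 bins in 3 stretches, and its window had 31, 59 and 66 active and 45, 0 and 0 state 8 bins of 82. Akt2, a kinase of insulin signalling, had 51 bins. Sds, a serine dehydratase, had 42, and its TSS went from state 8 to states 1 and 3, with 12, 65 and 82 active bins of 88. The windows of Irs2, Pck1 and Sds held more active bins in both 12-month groups than in SD 3m. For Pck1 and Sds, the choice of these genes by their new bins favours this. The Irs2 window had 0 state 8 bins in SD 3m, so that all its new bins lay outside the window.

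Of the hepatocyte transcription factors and nuclear receptors, 9 of 31 (29.0%) had a stretch: Nr2f2 had 114 bins and 157 CR-only bins, Nr5a2, a regulator of bile acid synthesis, 93, Nr1i2, the xenobiotic receptor PXR, 63, and Foxa1 43. Of the clock genes, 4 of 19 (21.1%) had a stretch, and Nfil3, a repressor of clock output genes, had 104 bins while Per3 had 12 and Hlf and Rora had 1 each. Of the interferon and inflammation genes, 11 of 34 (32.4%) had a stretch, with 79 bins for Orm1, 38 each for Irf8 and Nfkb1 and 25 for Crp. Of the antioxidant and stress response genes, 9 of 25 (36.0%) had a stretch, with 33 bins for Nqo1, 32 for Gclm, 25 for Txnrd1 and 19 for Srxn1. The window of Nqo1, a quinone reductase, went from 73 to 124 active bins of 126 in both 12-month groups. Of the cell cycle and p53 genes, 8 of 20 had a stretch, with 33 bins for Cdkn1c, 16 for Cdkn1a, 15 for Trp53 and 11 for Ccnb1. Cdkn1c, a cyclin-dependent kinase inhibitor, had 0, 65 and 54 active bins of 65, with its TSS in state 8 and then 4.

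Markers of the other cells of liver were assigned stretches in varying numbers. Of the cholangiocyte markers, 6 of 12 had a stretch, with 73 bins for Sox9, the bile duct transcription factor, 45 for Pkhd1, 28 for Tspan8 and 11 for Spp1. The TSS of Sox9 was in states 7, 4 and 1, and its window had 10, 76 and 68 active bins of 78. The TSS of 5, 9 and 10 of the 12 was in states 1 to 4. Of the endothelial markers, 7 of 18 (38.9%) had a stretch, with 39 bins for Flt1, 16 for Oit3, 9 for Tie1 and 5 for Gata4. Of the lymphocyte markers, 5 of 23 (21.7%) had a stretch, with 62 bins for Tcf7, 13 for Cd79b, 11 for Lef1 and 4 for Cd8a. Of the macrophage and Kupffer cell markers, 2 of 17 (11.8%) had a stretch, Adgre1 with 13 bins and Csf1r with 5. Of the stellate cell and fibroblast markers, 1 of 21 (4.76%) had a stretch, Acta2 with 7 bins, and of the neuronal genes 1 of 20, Slc6a4 with 4 bins. The TSS of 12, 13 and 16 of 18 endothelial, of 4, 5 and 5 of 17 macrophage, of 7, 10 and 9 of 21 stellate and of 4, 5 and 5 of 23 lymphocyte markers was in states 1 to 4. State 6 held the TSS of 4, 7 and 9 macrophage, 1, 7 and 7 stellate and 6, 11 and 11 lymphocyte markers. In these 3 lists it thus gained more TSS than states 1 to 4 did. It held the TSS of 0, 0 and 0 endothelial and of 1, 1 and 0 cholangiocyte markers. Over all 24963 genes, state 6 held the TSS of 2543, 3478 and 2895. States 1 to 4 held that of 13330, 14546 and 14657. Both were thus more frequent at 12 months over all genes as well, and the marker counts are to be read against this. The part of a change in cell types in these counts was not tested.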

How the data were processed

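The deposited value is the chromatin state of each 200 bp bin, a label from 1 to 8 and neither a count nor a signal, in 1 segmentation for SD 3m, SD 12m and CR 12m each. The authors aligned reads to mm10 with BWA 0.6.2, removed poorly mapped and duplicate reads with SAMtools 0.1.18, merged the libraries of a group and assigned states with ChromHMM. The merging, the threshold for a mark and the smoothing along the genome are thus part of the labels.

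From the labels, bins were selected and merged in Python 3.11.15 with numpy 2.4.6 and pandas 2.3.3, without a filter. The last bins fitted the chromosome lengths of GRCm38.p6, from which genes (the longest curated RefSeq transcript of each), sequences and repeats were taken. The functions were tested on a simulated segmentation. Named were the 5 longest stretches, the 10 genes with most bins, 4 genes per list and the 5 longest stretches holding a TSS. The 3 longest stretches between state 8 bins were chosen later. Members, lists and this rule were chosen with earlier results of these data known. The alternatives tried are in the closing section.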

Additional observations from a re-analysis of the deposited data

How the results depend on the processing

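Each setting changed the choice of bins or genes, not the labels, and a value was taken as moved where it left the Wilson 95% interval over bins, stretches or genes, which covers counting only. Keeping stretches of at least 1 kb gave 1.448% of state 8 bins, 91.8% of stretches beside an enhancer state, 8.19% within 2 kb of a TSS, 61.4% of bases in genes, a GC content of 48.0% and 20.2% of genes assigned. Leaving out bins within 1 kb of a marked bin of SD 3m gave 0.796% of the state 8 bins left, 96.2% of bins in state 4 in both groups, 5.42% of stretches within 2 kb of a TSS, 62.1% of bases in genes, a GC content of 47.6% and 17.9% of genes. Counting state 4 alone gave 1.47% of state 8 bins, 84.1% of stretches beside an enhancer state, 61.1% of bases in genes and a GC content of 47.7%. With chromosome X, 1.46% of state 8 bins were chosen. Joining stretches at most 1 kb apart gave 87.9% beside an enhancer state, and the TSS of all curated transcripts gave 8.32% within 2 kb.

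No paired analysis was possible because each group has 1 segmentation, and there was no replicate to leave out. The depth behind each state is unknown and limits all counts. A region marked in part of the mice, or below the threshold in SD 3m, cannot be told apart from a new enhancer.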
